A study of Saccharomyces cerevisiae with 2 samples.

Results

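The invertase and maltose utilisation genes of budding yeast described here are SUC2, which encodes the enzyme that splits sucrose, and 8 genes for the use of maltose. The latter are the maltases MAL12 and MAL32, the transporters MAL11, MAL31, MPH2 and MPH3, and the transcription activators MAL13 and MAL33. These 9 genes, of 6716 named genes in the expression tables, were taken by gene name and were selected on the expression values of the same libraries, so their differences between strains are given as a description and carry no test.

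The data are 2 RNA-Seq libraries, 1 of YHJ7, a haploid rice wine (Huangjiu) strain obtained by sporulation of a fermentation isolate, and 1 of BY4741, a laboratory strain isogenic with S288c. The labels call the rice wine strain YHJ8 or DY1 and give it as wild type, and they give BY4741 as MATa with deletions written his△1, leu2△0, lys2△0 and ura3△0. Both strains were grown in YPD, a rich medium with yeast extract, peptone and glucose, for which neither maltose nor sucrose is named, and were collected at early stationary phase. Each library was a pool of 2 biological replicates, so the spread between cultures is not known, and every interval below is a 95% interval of counting error alone.

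Expression was given as FPKM, fragments per kilobase of gene on the deposited scale of each library, and as estimated counts. The counts were divided by the worth of 1 fragment (0.797 in BY4741 and 1.253 in YHJ7), which gave 10218977 and 8168398 fragments on named genes. The worths do not follow these totals in inverse proportion. FPKM is thus not scaled to the totals alone, and ratios of FPKM differ from ratios of fragment shares. Each difference is the YHJ7 value less the BY4741 value of log2(FPKM + 1), which makes differences between low values look smaller, and 4-fold and 2-fold stand for 2 and 1 on it. Strains were assigned by the column headings, because each per-library table is attached to the sample of the other strain. Of 248 genes at least 4-fold different both between these tables and in the authors' table of the whole series, which names both strains, 246 had the same direction, and reading the tables by their attachment would turn all directions round. In the library headed BY4741, LEU2, URA3 and MET17 were listed at 0 against 64.2, 154.6 and 25.7 FPKM in YHJ7. HIS3 was at 91.6 FPKM there. LYS2, which the labels give as deleted, had 1348 fragments there and 26.1 FPKM against 25.3 in YHJ7, so its values go against that label. MET17 is not among the deletions that the labels give.

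Invertase is made from SUC2 as a secreted and as an intracellular form, from transcripts with different start sites. Glucose represses the secreted form through Mig1, a zinc finger protein that binds GC-rich boxes and recruits the Cyc8-Tup1 corepressor, and the kinase Snf1 relieves this when glucose is low. Maltose genes lie near chromosome ends as MAL loci with a transporter, a maltase and an activator that needs maltose to switch the other genes on, and glucose represses them as well. In the S288c reference the activators MAL13 and MAL33 are regarded as nonfunctional.

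The sequences that bear on these values are printed first, from the R64 (sacCer3) reference of S288c, to which the reads of both strains were mapped. They are not sequences of YHJ7. The stretch before SUC2 is at chrIX:36874-36997 on the plus strand, that before MAL33 at chrII:800233-800385 (plus), that before MAL13 at chrVII:1070147-1070176 (plus) and that before MPH2 at chrIV:5728-5876 (plus). Capitals mark the word GCGGGG, the word CCGGGG, the word GTGGGG and the word CTGGGG or their reverse complements, which were searched on both strands in the 550 bases before each start codon as simple forms of a GC box.
SUC2 upstream: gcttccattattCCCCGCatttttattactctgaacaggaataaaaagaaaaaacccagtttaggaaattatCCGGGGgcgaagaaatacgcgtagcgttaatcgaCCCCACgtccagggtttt
MAL33 upstream: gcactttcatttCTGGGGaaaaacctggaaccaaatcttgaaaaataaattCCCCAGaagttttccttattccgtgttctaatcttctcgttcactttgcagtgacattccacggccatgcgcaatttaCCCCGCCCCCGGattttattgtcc
MAL13 upstream: ggttttctttatCCCCGGtcataattactc
MPH2 upstream: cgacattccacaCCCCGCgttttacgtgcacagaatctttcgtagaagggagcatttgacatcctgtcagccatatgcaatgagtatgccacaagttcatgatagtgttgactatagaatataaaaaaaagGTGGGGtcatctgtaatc

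SUC2 had 3 of these words, at positions -499, -439 and -405 from the start codon, and MAL33 had 4, which do not overlap, although the last 2 adjoin. At least 3 words were found before 0.833% of the 6006 genes with a full window and at least 4 before 0.183%. MPH2 and MPH3 had 2 each, a number reached by 4.43% of genes, and MAL11, MAL12, MAL13, MAL31 and MAL32 had 1 each, a number reached by 25.1% of genes. MAL11 and MAL12 are divergent and share the same word in the 785 bases between them, whereas MAL31 and MAL32, 875 bases apart, have a word each. A match describes the letters of the reference only and does not show whether a site is bound.

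The start of the SUC2 coding sequence, at chrIX:37385-37474 (plus), is shown because both forms of invertase are read from it, with the ATG of codons 1 and 21 in capitals. The first starts the secreted form with its signal peptide, and the ATG at codon 21 lies where the intracellular form begins. Gene-level counts join the transcripts of both forms, so the values below do not separate them.
SUC2 coding start: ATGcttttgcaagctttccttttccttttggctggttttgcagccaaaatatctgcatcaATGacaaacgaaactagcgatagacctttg

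The maltase genes and the MPH transporters are near-identical copies, which limits how reads can be divided between them. Bases 212 to 268 of the coding sequences, at chrVII:1076810-1076866 for MAL12 and chrII:805562-805618 for MAL32 (both plus), hold 3 of the 8 substitutions between the genes, in capitals. Written with the MAL12 base first and counted from the A of the start codon, the 8 are C222T, T249C, T258C, G420A, G913C, C1399T, C1416T and A1614G, and the longest identical stretch is 492 bases.
MAL12 coding: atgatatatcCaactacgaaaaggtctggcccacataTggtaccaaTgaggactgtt
MAL32 coding: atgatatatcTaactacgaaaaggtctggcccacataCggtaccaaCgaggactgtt

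The ends of the MPH2 and MPH3 coding sequences are at chrIV:7702-7814 (plus) and chrX:738008-738099 (minus, printed on the coding strand), with a run of C and the stop codon in capitals. The genes are identical for 1747 bases from the start codon. MPH3 then has 7 C where MPH2 has 6, and MPH2 runs on for 22 bases beyond the place of the MPH3 stop.
MPH2 coding end: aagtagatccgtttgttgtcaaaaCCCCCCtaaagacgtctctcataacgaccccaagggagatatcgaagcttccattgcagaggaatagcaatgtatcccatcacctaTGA
MPH3 coding end: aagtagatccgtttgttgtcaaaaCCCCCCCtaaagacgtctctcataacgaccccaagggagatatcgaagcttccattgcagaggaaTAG

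In the expression values, SUC2 stood far above the rest in YHJ7. It was 57.8-fold higher there than in BY4741, and MAL33, the activator of the MAL3 locus, was 5.90-fold higher. The transporter MAL31 and the sum of the maltase copies were also higher in YHJ7, and the transporter MAL11 was lower. MPH2 and MPH3 were lower in YHJ7 in the per-library tables, but in the authors' table of the whole series their sum differed by 0.027. MAL32 alone was at 1.53 in the per-library tables and at -0.083 in that of the whole series. MAL32, MPH2 and MPH3 were low in the latter and were marked there as not tested. MAL13, the other activator, had a difference of 0.58.

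SUC2 (YIL162W) is a single-exon gene of 1599 bp at chrIX:37385-38983 on the plus strand. It had 54.7 FPKM in BY4741 (51.4 to 58.3) and 3162 FPKM in YHJ7 (3129 to 3194), with 992 and 36441 fragments. It thus had a middling level in BY4741 and a very high one in YHJ7, at place 2767 and place 116 among the 6716 genes by FPKM. Its share of all fragments on named genes was 0.00971% in BY4741 (exact Clopper-Pearson interval 0.00911 to 0.0103%) and 0.446% in YHJ7 (0.442 to 0.451%). The FPKM ratio of 57.8 had an interval of 54.2 to 61.6 on the deposited scale, and the ratio of the shares is smaller. The log2(FPKM + 1) difference was 5.83, place 12 among all genes ordered from the most positive. Because RNA was taken from whole cultures, more transcript per cell and more cells with the transcript cannot be told apart.

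The maltases MAL12 and MAL32, which split maltose into glucose, were low in both strains. MAL12 (YGR292W, chrVII:1076599-1078353, plus, 1755 bp) had 6.89 FPKM in BY4741 and 25.7 in YHJ7, and MAL32 (YBR299W, chrII:805351-807105, plus, 1755 bp) had 5.93 and 19.0 FPKM. The ratios were 3.74 (3.06 to 4.59) and 3.21 (2.57 to 4.02), which overlap in their intervals. Because the coding sequences are 99.5% identical and only 16.4% and 15.9% of their 50-base windows occur once in the genome, the sum of the copies is the firmer value. The sum was 12.8 FPKM in BY4741 and 44.7 in YHJ7, with 258 and 573 fragments, a 3.49-fold higher level in YHJ7 (3.01 to 4.06) and a log2(FPKM + 1) difference of 1.73. Its share of fragments on named genes was 0.00252% in BY4741 and 0.00701% in YHJ7, a smaller ratio. Even this sum placed maltase below MAL31 in both libraries. In the table of the whole series the sum kept its direction (1.46), as did MAL12 (1.71), whereas MAL32 was at -0.083.

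**Figure D1:**
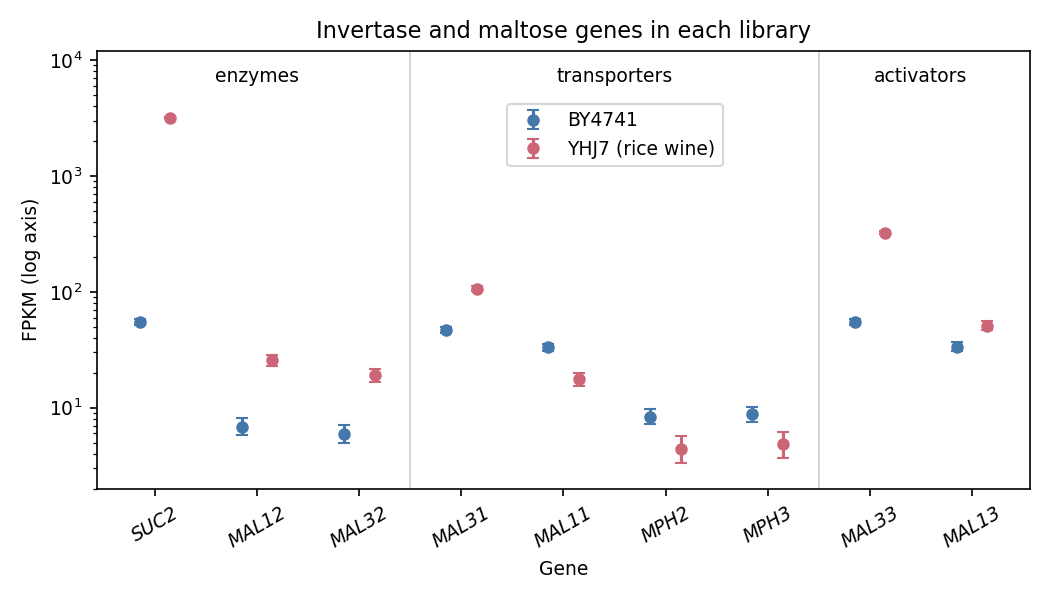
FPKM (log axis) of each invertase and maltose gene in the BY4741 and YHJ7 libraries, 1 library per strain, grouped by role, with bars for the 95% counting interval. SUC2 goes from 54.7 to 3162 FPKM and MAL33 from 54.9 to 324 FPKM, whereas MAL11, MPH2 and MPH3 are lower in YHJ7 in these per-library tables. In the table of the whole series MPH2 and MPH3 are marked as not tested and give no direction.

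The maltose transporters differed among themselves in direction. MAL31 (YBR298C, chrII:802631-804475, minus, 1845 bp), the maltose permease of the MAL3 locus, had 47.0 FPKM in BY4741 and 106.3 in YHJ7, with 1001 and 1441 fragments. It was 2.26-fold higher in YHJ7 (2.09 to 2.46) on the deposited scale, a log2(FPKM + 1) difference of 1.16. By share of fragments on named genes, 0.00980% in BY4741 and 0.0176% in YHJ7, the ratio was smaller. MAL11 (YGR289C, chrVII:1073963-1075813, minus, 1851 bp), also known as AGT1 and able to carry several alpha-glucosides, had 33.1 FPKM in BY4741 and 17.6 in YHJ7, with 709 and 240 fragments. It was thus 1.88-fold higher in BY4741 (1.62 to 2.19), the opposite direction to MAL31, and the intervals of both genes' levels were separate between the strains. By share of fragments on named genes, 0.00694% in BY4741 and 0.00294% in YHJ7, the gap for MAL11 was wider. The MAL11 coding sequence is overlapped by the antisense open reading frame YGR290W, listed at 12.5 FPKM in BY4741 and 2.18 in YHJ7, and reads of these cannot be told apart where no strand is used.

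MPH2 (YDL247W, chrIV:5985-7814, plus, 1830 bp) and MPH3 (YJR160C, chrX:738008-739816, minus, 1809 bp) encode alpha-glucoside permeases and were the lowest genes of the set in YHJ7. MPH2 had 8.36 FPKM in BY4741 and 4.43 in YHJ7, and MPH3 had 8.80 and 4.86 FPKM. Only 2.75% and 2.5% of their 50-base windows are unique, so that nearly all reads of one copy also match the other. The sum of both was 17.2 FPKM in BY4741 and 9.29 in YHJ7, with 360 and 124 fragments, which is 1.85-fold higher in BY4741 (1.50 to 2.28) and a log2(FPKM + 1) difference of -0.82. In the table of the whole series this direction was not kept. The sum was 0.65 FPKM in BY4741 and 0.68 in YHJ7 (0.027), which is 3.78% and 7.31% of the per-library values. Both genes were marked as not tested (NOTEST) there, and values this low do not give an opposite direction. The counting interval does not cover this difference between the tables, and no direction is given for MPH2 and MPH3.

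The activators differed in size but not in direction. MAL33 (YBR297W, chrII:800523-801929, plus, 1407 bp) had 54.9 FPKM in BY4741 and 324 in YHJ7, with 859 and 3222 fragments. The ratio was 5.90 (5.47 to 6.37) and the log2(FPKM + 1) difference 2.54, place 87 among all genes. MAL13 (YGR288W, chrVII:1070293-1071714, plus, 1422 bp) had 33.7 FPKM in BY4741 and 50.9 in YHJ7, a ratio of 1.51 (1.34 to 1.71), so the counting intervals of the MAL33 and MAL13 ratios were well apart. By share of fragments on named genes both ratios were smaller. The shares in BY4741 and YHJ7 were 0.00841% and 0.0394% for MAL33, and 0.00522% and 0.00627% for MAL13. The coding sequences of the activators are 71.7% identical, and 94.3% of the 50-base windows of MAL33 and 100% of those of MAL13 are unique, so that their reads can be told apart. The 550 bases before the activators are 50.6% identical, against 90.2% before the maltases and 99.6% before MPH2 and MPH3.

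The order of the levels changed between the strains. In BY4741, MAL33 and SUC2 were highest and did not differ beyond counting error, followed by MAL31, then by MAL13 and MAL11, which also overlapped, and then by MPH3, MPH2, MAL12 and MAL32, each overlapping the next. In YHJ7 the order was SUC2, MAL33, MAL31, MAL13, MAL12, MAL32, MAL11, MPH3 and MPH2, and only MAL32 with MAL11 and MPH3 with MPH2 overlapped. The range from the lowest to the highest member was thus 5.93 to 54.9 FPKM in BY4741 and 4.43 to 3162 FPKM in YHJ7. The places of the near-identical copies rest on how the authors' software divided their reads. Both activators stood above the sum of the maltase copies, with 54.9 and 33.7 against 12.8 FPKM in BY4741 and 324 and 50.9 against 44.7 FPKM in YHJ7. The YHJ7 intervals of MAL13 (46.6 to 55.5) and of the sum (41.1 to 48.5) overlapped. At the MAL3 locus the activator MAL33 and the transporter MAL31 were both higher in YHJ7, whereas at the MAL1 locus the transporter MAL11 was lower beside the higher activator MAL13. The maltases are left out of this comparison of the loci, because their reads cannot be placed at MAL12 or MAL32 with certainty.

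Of the 9 genes, 6 were higher and 3 lower in YHJ7, with a median difference of 1.16, which was 0.87 with a pseudocount of 10, 0.95 with both libraries scaled to the same FPKM total and 0.52 in the table of the whole series. SUC2 and MAL33 were at least 4-fold higher and none was at least 4-fold lower, beside 2.74% and 3.75% of all 6716 genes. At 2-fold, 5 were higher and 0 lower, beside 12.4% and 9.84% of all genes. With the same total, MAL31 (0.95) was no longer 2-fold higher and MAL11 (-1.08) was 2-fold lower, so that 4 were higher and 1 lower, and with a pseudocount of 10 and in the table of the whole series 4 were higher and 0 lower, without MAL32 (0.87 and -0.083). Over all genes the median difference was 0, with 3329 genes higher and 3307 lower. Since the same values chose the 9 genes, nothing is read from these counts.

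**Figure D2:**
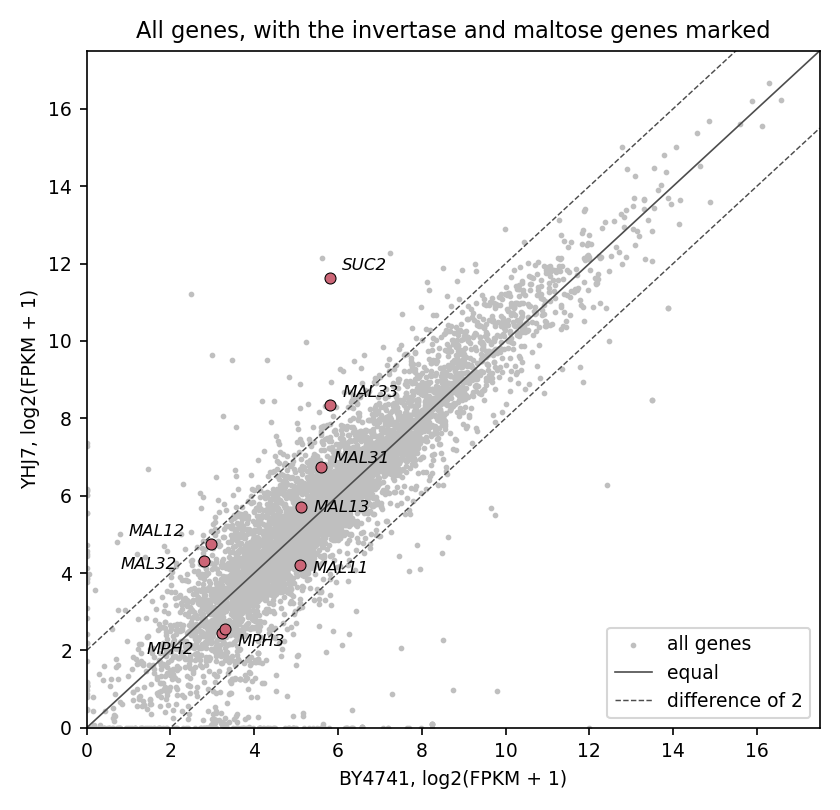
log2(FPKM + 1) of all 6716 genes in BY4741 (x axis) and YHJ7 (y axis), 1 point per gene, with the 9 invertase and maltose genes in red, a solid line for equal values and dashed lines for a difference of 2. SUC2 and MAL33 lie above the upper dashed line, at differences of 5.83 and 2.54, and MAL11 (-0.87) lies below the solid line, as do MPH2 and MPH3 in these per-library tables.

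All the maltose genes lie near chromosome ends, from 5.94 kb (MPH3) to 19.2 kb (MAL13) from the end of the reference chromosome, and SUC2 lies 37.4 kb from it. Of the 493 genes within 30 kb of an end, 5.88% were at least 4-fold higher in YHJ7 and 19.3% at least 4-fold lower, and their median difference was -0.25. MAL13, MAL31, MAL33 and the maltase copies, whose sum was higher in YHJ7, thus lie in a part of the genome where 194 of the 493 genes were higher. Copies of these genes that YHJ7 holds beyond those of S288c, and losses of them, were not analysed here, and a change in copy number or in sequence cannot be told apart from a change in expression per copy.

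The genes next to SUC2 did not share its difference. Of the 3 genes on each side, the differences ran from -1.26 for NIT1, a nitrilase gene, to 1.85 for POT1, the peroxisomal thiolase of fatty acid breakdown, which had 228 FPKM in BY4741 and 822 in YHJ7. The directly adjoining YIL163C and YIL161W were at -0.95 and -0.06, and the median of the 6 neighbours was -0.46. YIL163C spans part of the upstream stretch printed above and had 11 and 3 fragments, of which the latter is at the floor.

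At the MAL1 locus the neighbours ran from -0.95 for YGR293C to 1.92 for COS6, with a median of 0.67. IMA1, an isomaltase gene next to MAL13, was at 1.17, and BIO2, the biotin synthase gene, at 1.40. At the MAL3 locus they ran from -2.04 for YBR296C-A, which had 26 and 4 fragments, to 0.54 for PCA1, a metal-exporting ATPase gene, with a median of -0.28. MAL33 (2.54) therefore lies between YBR296C-A on its centromere side and MAL31 (1.16) on its telomere side, and the next gene towards the centromere, the phosphate transporter gene PHO89, was at -0.93.

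MPH2 and MPH3 lie beside near-identical neighbours, the sorbitol dehydrogenase genes SOR2 and SOR1 and the hexose transporter genes HXT15 and HXT16. SOR2 had 17.9 FPKM in BY4741 and 1.25 in YHJ7, and SOR1 had 17.1 and 1.25 FPKM, differences of -3.07 and -3.01, with 9 fragments each in YHJ7. These neighbouring copies were not summed, and their values per copy rest on how reads were divided. HXT15 and HXT16 were at -1.41 and -1.30, beside -0.79 and -0.74 for MPH2 and MPH3 in the same tables. On the side of MPH2 and MPH3 towards the chromosome end, COS7 and COS5 were at 2.40 and 1.52. Of the 28 neighbours of all the loci, 1 (COS7) was at least 4-fold higher and 3 (SOR1, SOR2 and YBR296C-A) at least 4-fold lower. The shares were 2.74% and 3.75% over all genes, and 5.88% and 19.3% over genes within 30 kb of an end. SOR1 and SOR2 may share reads and YBR296C-A had 4 fragments in YHJ7, so nothing is read from this count.

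**Figure D3:**
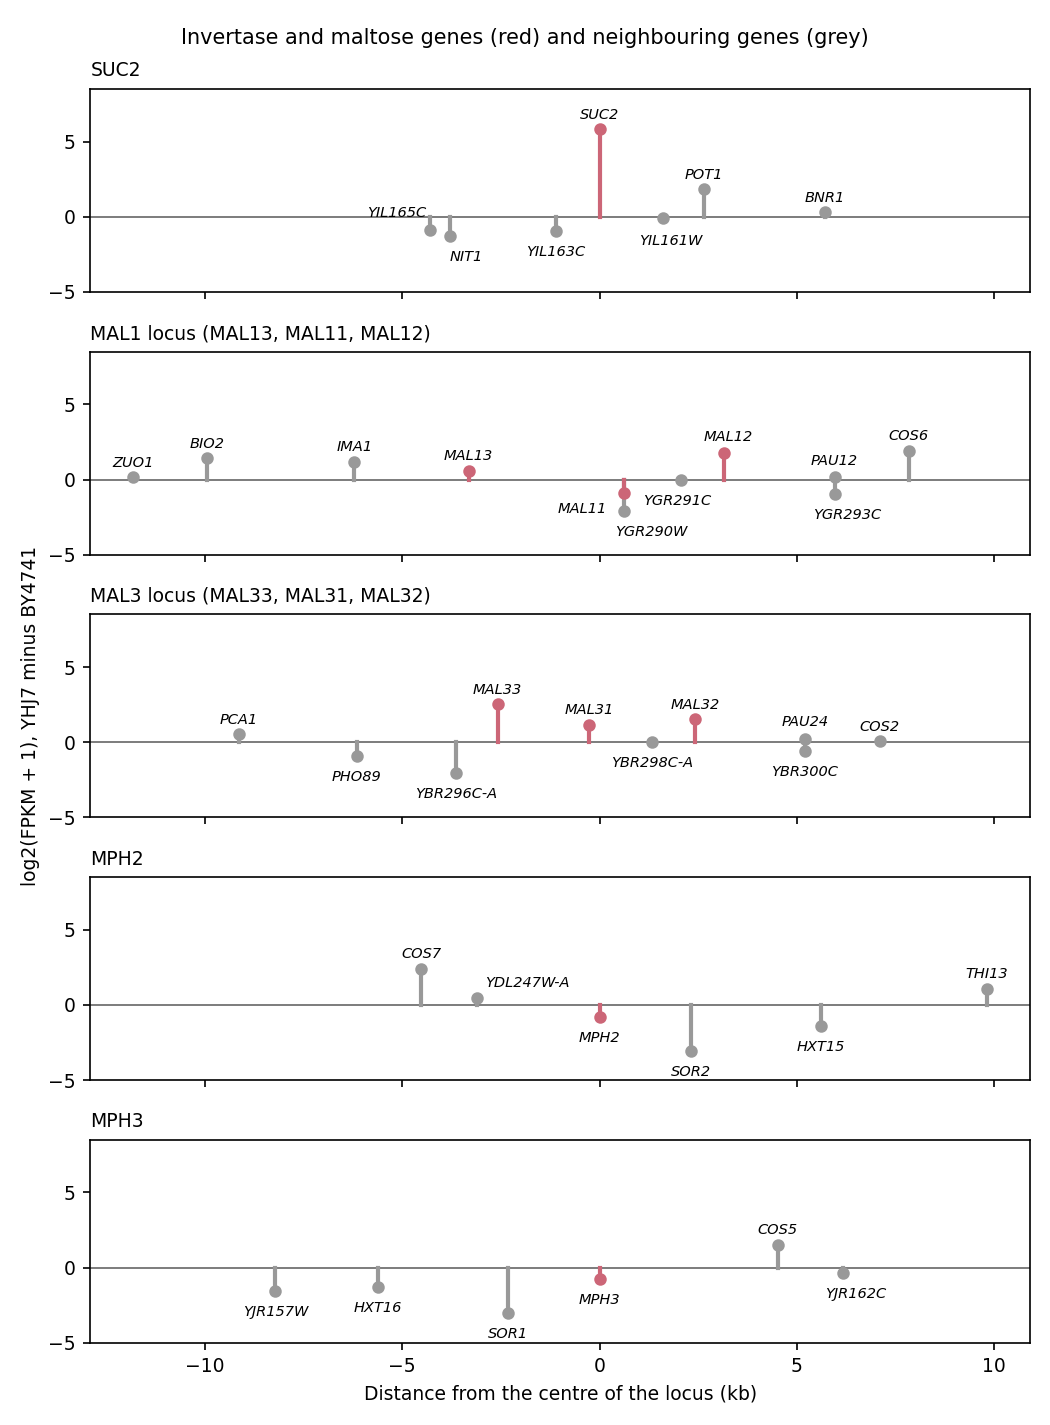
log2(FPKM + 1) difference (YHJ7 minus BY4741) of the invertase and maltose genes (red) and of the genes around them (grey), against distance from the centre of each locus in kb, 1 panel per locus. SUC2 (5.83) stands above neighbours between -1.26 and 1.85, and SOR2 (-3.07) and SOR1 (-3.01) beside MPH2 and MPH3 are lowest.

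Other genes related by function or by name were given as lists. The isomaltases IMA1 to IMA5, relatives of the maltases that split isomaltose, were all listed higher in YHJ7 on the deposited FPKM scale, with a median of 0.27 (the value of IMA5) and none at 4-fold. IMA3 and IMA4 each had 373 of 10218977 fragments in BY4741 and 286 of 8168398 in YHJ7. By share of fragments on named genes they were thus slightly lower in YHJ7, and their direction depends on the scale. In the table of the whole series 3 were higher, and IMA3 and IMA4 were listed at 0 in both strains. IMA1 was the highest, with 5.63 FPKM in BY4741 and 14.0 in YHJ7 (1.17), and IMA3 and IMA4, listed with identical values of 18.3 and 22.1 FPKM, were the lowest (0.26). The difference of the summed maltases (1.73) was above that of IMA1. No counting interval was computed for IMA1, which had 114 and 181 fragments, so whether these differ beyond counting error is not shown. The isomaltase IMA5 had the lowest level in both libraries, at 2.50 and 3.22 FPKM. The paper lists IMA5 within a deletion of YHJ7 relative to S288c. From which sequence its 41 fragments in YHJ7 came was not tested, so no direction is given for IMA5.

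Of 9 SNF genes, a name that stands for sucrose nonfermenting, 5 were higher and 4 lower, with none at 2-fold and a median of 0.16. The list goes by name, and its genes do not all act in derepression of SUC2. They ran from -0.66 for SNF5 to 0.90 for SNF11, both of the SWI/SNF chromatin remodelling complex. SNF1, the gene of the kinase itself, had 56.7 FPKM in BY4741 and 63.5 in YHJ7, a difference of 0.16. The difference of SUC2, whose repression the kinase relieves, was 5.83. Activity of the kinase was not measured. With both libraries scaled to the same FPKM total, 3 were higher and 6 lower, and the median was -0.051.

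Of 15 genes that act in repression of SUC2 or MAL genes, 7 were higher and 8 lower, with a median of -0.07 and none at 4-fold. MIG1, whose product binds GC boxes, had 60.8 FPKM in BY4741 and 57.3 in YHJ7 (-0.08), and its paralogs MIG2 and MIG3 were at -0.07 and -0.84. HXK2, a hexokinase that also takes part in glucose repression, was the highest of the list with 89.4 and 264 FPKM (1.55), and NRG1, a repressor of glucose-repressed genes, had 107 and 248 FPKM (1.20). TUP1 and CYC8, the corepressor genes, were at 0.25 and 0.80. MIG3, with 29.9 and 16.3 FPKM, was the lowest of the list. With both libraries scaled to the same FPKM total it was at -1.04, past 2-fold, and the list had 5 genes higher and 10 lower with a median of -0.28.

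**Figure D4:**
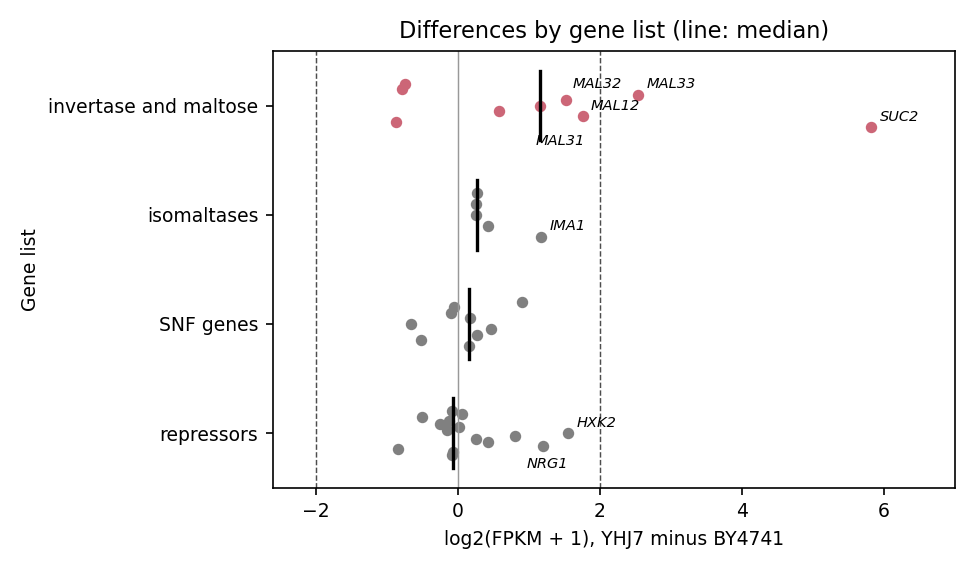
log2(FPKM + 1) difference (YHJ7 minus BY4741) of each gene in 4 lists, 1 point per gene, with a black line at each list's median and dashed lines at -2 and 2. The medians are 1.16 for the invertase and maltose genes, 0.27 for isomaltases, 0.16 for SNF genes and -0.07 for repressors on the deposited scale (0.95, 0.11, -0.051 and -0.28 after scaling both to equal FPKM totals), and SUC2 and MAL33 are past the dashed line.

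The 3 genes nearest to SUC2 in their pair of levels, by Euclidean distance of log2(FPKM + 1) over the 2 libraries, were HXT2, HPF1 and VHT1. HXT2, a hexose transporter gene, had 47.9 FPKM in BY4741 and 4548 in YHJ7, at a distance of 0.56. HPF1, a cell wall mannoprotein gene, had 151 and 4949 FPKM at a distance of 1.59, and VHT1, the biotin transporter gene, had 36.9 and 999 FPKM at 1.75. A likeness over 2 libraries is a description of these values only.

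The authors' table of the whole series, another estimate from the same 2 libraries, gave the same direction for SUC2 and for the maltose genes with mostly unique sequence. It is not independent of the per-library values. SUC2 was at 62.8 FPKM in BY4741 and 3428 in YHJ7 (log2(FPKM + 1) difference 5.75), MAL33 at 75.0 and 416 (2.46), MAL31 at 57.9 and 126 (1.11), MAL13 at 38.5 and 55.7 (0.52) and MAL11 at 33.7 and 17.1 (-0.93). The near-identical copies were much lower there, and MAL12 with 1.64 and 7.66 FPKM kept its direction while MAL32 with 0.73 and 0.64 FPKM did not. The sum of MAL12 and MAL32 was 2.38 FPKM in BY4741 and 8.30 in YHJ7, which is 18.5% of the per-library values in both strains and the same ratio of 3.49. MPH2 was at 0.11 and 0.15 FPKM (0.055) and MPH3 at 0.54 and 0.53 (-0.011). MAL32, MPH2 and MPH3 were marked as not tested (NOTEST) there, and their values there give no direction between the strains.

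**Figure D5:**
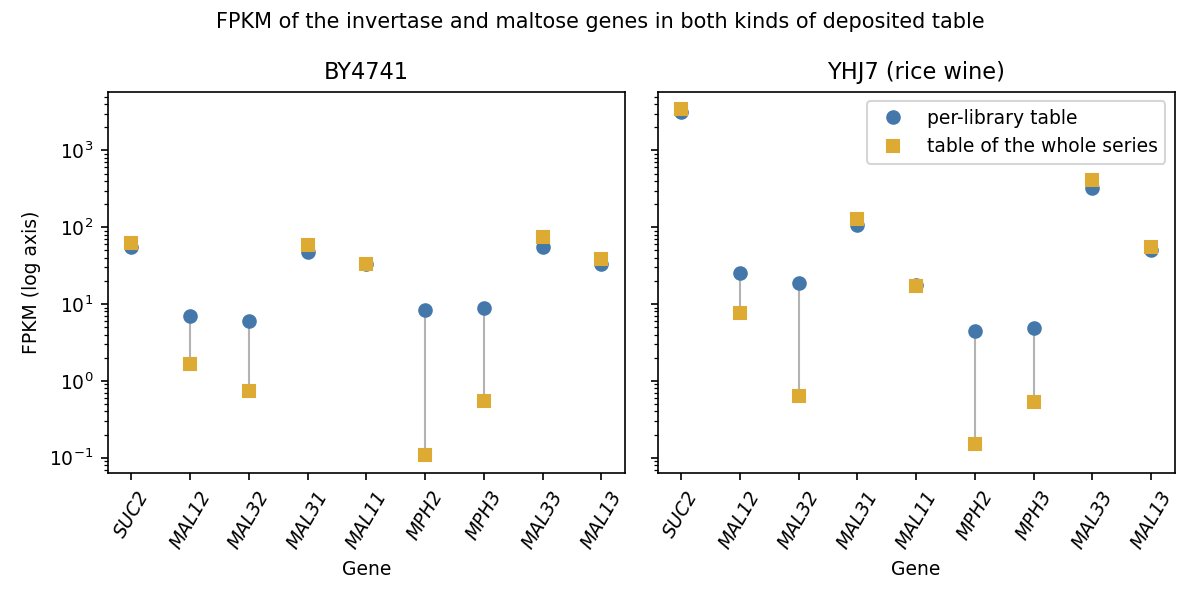
FPKM (log axis) of the 9 invertase and maltose genes in the per-library tables (circles) and in the authors' table of the whole series (squares), for BY4741 (left) and YHJ7 (right). SUC2, MAL31, MAL11, MAL33 and MAL13 lie close together in both tables, whereas MAL12, MAL32, MPH2 and MPH3 are lower in the table of the whole series.

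The sum of all FPKM differed between the libraries. With both scaled to the same total, the median of all genes shifted by -0.19, and SUC2 (5.61), MAL33 (2.33) and the sum of MAL12 and MAL32 (1.52) stayed higher in YHJ7. MAL31 was then at 0.95 and MAL13 at 0.37, and MAL11 at -1.08. The genes at least 4-fold higher and lower were then 122 and 285, against 184 and 252 on the deposited scale.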

How the data were processed

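RNA of 2 strains was sequenced, 1 library each from 2 pooled biological replicates. According to the methods and the submitters' processing notes, the authors mapped reads to the S288c genome (sacCer3) with TopHat2 2.0.4 and quantified genes by Cufflinks 2.0.2. The per-library tables deposited hold an estimated count per gene, scaled by 1 factor per library, and an FPKM value. Whether these factors were set within each library or across both was not tested. The deposited table of the whole series holds FPKM values of both strains, with fold changes, test statistics, p-values and q-values of the authors' own comparison, which were not used.

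As the worth of 1 fragment, the largest step was used that had a share of whole multiples at most 0.1 below the highest. With a tolerance of 0.01, 53.6% of 1242 values up to 100 in BY4741 and 55.5% of 1257 in YHJ7 were whole, so no count model was fitted. The row naming no gene (0.806% and 0.309% of counts) was left out. Above the floor of 3 fragments (2.39 and 3.76 deposited counts) were 6488 and 6320 genes. Fragment intervals are exact Poisson and ratio intervals exact binomial (Clopper-Pearson). Genes were matched to RefSeq R64 by symbol or locus tag (5980 of 6716), and all coordinates and sequences come from it. Copies of at least 95% identity were summed. With 1 library per strain no test was made.

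The genes and lists were chosen with earlier results of these data known. Those named are the 9 genes, list genes past 4-fold or otherwise the lowest and highest of each list, the neighbours, 5 genes checking the strain labels and the 3 genes nearest to SUC2. SNF1, MIG1, MIG2, NRG1, TUP1, CYC8 and IMA5 were named in addition, after their values were seen. Alternatives varied the pseudocount (0.1 and 10), scaling, table, a filter of mean FPKM 1, the threshold and the fragment step. Scripts were tested on simulated data. Python 3.11.15, NumPy 2.4.6, pandas 2.3.3, SciPy 1.17.1, Biopython 1.88 and matplotlib 3.10.9 were used.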

Additional observations from a re-analysis of the deposited data

How the results depend on the processing

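SUC2 ran from 5.61 to 5.85 and MAL33 from 2.33 to 2.56 over the pseudocounts, the scaling to the same total and the table of the whole series. With a pseudocount of 10, SUC2 was at 5.61, MAL33 at 2.36, the sum of MAL12 and MAL32 at 1.26 and that of MPH2 and MPH3 at -0.49. With the same total, SUC2 was at 5.61 and MAL33 at 2.33. In the table of the whole series the sum of MAL12 and MAL32 was at 1.46, and MAL32 (-0.083), MPH2 (0.055) and the sum of MPH2 and MPH3 (0.027) changed sign. MAL32, MPH2 and MPH3 were marked as not tested there, so these signs are not read as an opposite direction. The cause of the change of sign was not tested. The 184 genes at least 4-fold higher in YHJ7 became 100 with a pseudocount of 10, 122 with the same total, 836 at 2-fold and 29 at 16-fold. The 252 genes at least 4-fold lower became 67 with a pseudocount of 10, 152 in the table of the whole series, 661 at 2-fold and 68 at 16-fold. Of all values under the alternatives, 50 stayed within the limits set for them, 32 moved past these and 3 changed sign. The step of the highest share (0.398 in BY4741 and 0.313 in YHJ7) would count more fragments and narrow the counting intervals. No paired analysis was possible because there is only 1 library of either strain, and for the same reason no replicate could be left out. The MPH genes, with 124 fragments in YHJ7, are the least precise.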
